A study of Mus musculus with 12 samples.

Results

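Genes of glycolysis and of the response to low oxygen were described across embryonic mouse hearts with and without the histone chaperone HIRA in the *Mesp1* lineage. The 33 genes were taken by symbol from the deposited table of 20368 genes. They were the carriers of glucose and lactate (*Slc2a1*, *Slc2a3*, *Slc2a4*, *Slc16a3*), the enzymes from hexokinase to lactate dehydrogenase, the pyruvate dehydrogenase kinases, the alpha subunits of the hypoxia-inducible factor (HIF), its prolyl hydroxylases and 4 of its targets. All 33 were found, all had reads in each library, and 32 entered the tests. The remaining one, *Pdk3*, is X-linked and stands outside the deposited comparisons, so its values came from a fit to which X- and Y-linked genes were added.

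RNA-seq had been carried out on whole hearts of CD1 embryos at E11.5 and at E12.5. At each stage 3 libraries came from *Mesp1Cre*;*Hira+/fl* embryos, named Cre controls by the submitters and controls here, and 3 from *Mesp1Cre*;*Hira-/fl* embryos, named mutants, which gave 12 libraries in 4 groups. All embryos thus carried the Cre allele and a floxed *Hira* allele. The controls kept a wild-type allele in all cells, whereas the mutants had a null allele in all cells and lost the floxed one where *Mesp1Cre* had been active, which is the early cardiac mesoderm and its descendants (myocardium, endothelium, epicardium and smooth muscle). Cells of other origin in the heart, such as those of the neural crest, kept 1 working allele. Whether a library was 1 heart or a pool is not given in the sources used here, so the p-values measure the spread between these libraries.

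Glycolysis turns glucose into pyruvate, and lactate dehydrogenase turns pyruvate into lactate, which is exported when mitochondria use little of it. In low oxygen the prolyl hydroxylases (encoded by the *Egln* genes) no longer mark HIF alpha subunits for destruction, and HIF then drives glucose carriers, most glycolytic enzymes, *Pdk1*, *Bnip3* and its own hydroxylases through sites with the core ACGTG or GCGTG. The early embryonic heart runs largely on glycolysis and moves towards mitochondrial fuel use as it grows.

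Levels are given as CPM (reads scaled to library depth), computed with TMM-scaled library sizes, and as reads scaled to transcript length and depth (RPKM) where genes are compared with each other. Total counts ran from 11994148 to 17483982 per library, so that counting error was small beside the spread between libraries for the abundant enzymes. E11.5 mutant 3 stood apart from the other libraries. It had the lowest depth, the lowest correlation with a library of its own group (0.9709, shared with E11.5 mutant 2) and the steepest trend of expression on gene length (-0.227 log2 units per doubling of length, against -0.137 to 0.151 in the other 11 libraries). It was the highest of the 6 E11.5 libraries for 21 of the 33 genes. At E12.5 mutant 2 was the lowest of its group for 29 of the 33 genes, and this library was called female, as was that of mutant 3. By their Y-linked reads the E11.5 control libraries were all called male. The other groups held 1 library called male and 2 called female each. *Hira* itself measured 77.6 ± 8.64 CPM in controls and 64.8 ± 8.98 in mutants at E11.5 (mean ± SD, n = 3), and 74.8 ± 12.7 and 74.2 ± 5.28 CPM at E12.5. The groups overlapped at both stages. Recombination removes a single exon of the floxed allele, and the deposited count covers the whole gene, so it does not check the labels.

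The promoters of these genes were searched for the HIF core, ACGTG or GCGTG on either strand, in RefSeq windows (GRCm38.p6) of 250 bases before to 50 bases after the start. Windows existed for 29 of the 33 genes, and *Slc2a3*, *Slc2a4*, *Epas1* and *Ndrg1* were not matched. At least 1 core was present in 26 of 29 genes (89.7%), compared with 67.9% of 9180 tested genes with a window, and ACGTG in 19 of 29 (65.5%) compared with 29.4%. Among genes with a single window these shares were 85% of 20 genes compared with 64.7% of 7252 for either core, and 60% compared with 26.2% for ACGTG. The palindrome CACGTG counts as 2 overlapping matches. A match is a run of letters and not a measured binding site. The bases before the start are shown for 4 genes that passed the test over both stages under every alternative and had a window, and for *Ldha*, whose first window held the most cores of all members. Capitals mark the cores as they read on the strand of the gene, the start itself lies just after the last base, and a core on the opposite strand reads CACGT or CACGC. The stretches are chr4:119108495-119108744 (plus strand) for *Slc2a1*, chr7:138909507-138909756 (minus strand) for *Bnip3*, chr12:54203875-54204124 (minus strand) for *Egln3*, chr10:59951771-59952020 (minus strand) for *Ddit4* and chr7:46845554-46845803 (plus strand) for *Ldha*.
Slc2a1: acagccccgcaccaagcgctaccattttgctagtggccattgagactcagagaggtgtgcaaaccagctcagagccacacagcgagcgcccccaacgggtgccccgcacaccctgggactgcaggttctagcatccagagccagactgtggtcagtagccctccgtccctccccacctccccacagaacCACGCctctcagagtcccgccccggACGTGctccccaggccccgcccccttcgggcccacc
Bnip3: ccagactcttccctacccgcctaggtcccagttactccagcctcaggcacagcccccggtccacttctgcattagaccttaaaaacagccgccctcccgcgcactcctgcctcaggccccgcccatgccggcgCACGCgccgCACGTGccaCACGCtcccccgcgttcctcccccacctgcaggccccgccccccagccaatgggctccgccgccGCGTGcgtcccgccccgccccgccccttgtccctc
Egln3: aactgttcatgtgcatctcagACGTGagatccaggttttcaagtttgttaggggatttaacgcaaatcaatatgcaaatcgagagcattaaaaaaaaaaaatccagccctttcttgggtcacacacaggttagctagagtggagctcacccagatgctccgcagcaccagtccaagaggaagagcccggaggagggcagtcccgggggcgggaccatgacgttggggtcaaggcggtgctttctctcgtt
Ddit4: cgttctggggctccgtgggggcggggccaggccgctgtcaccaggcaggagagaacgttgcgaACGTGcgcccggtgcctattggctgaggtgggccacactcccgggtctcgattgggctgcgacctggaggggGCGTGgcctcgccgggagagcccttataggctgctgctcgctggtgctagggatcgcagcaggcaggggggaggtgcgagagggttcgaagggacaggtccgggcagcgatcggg
Ldha: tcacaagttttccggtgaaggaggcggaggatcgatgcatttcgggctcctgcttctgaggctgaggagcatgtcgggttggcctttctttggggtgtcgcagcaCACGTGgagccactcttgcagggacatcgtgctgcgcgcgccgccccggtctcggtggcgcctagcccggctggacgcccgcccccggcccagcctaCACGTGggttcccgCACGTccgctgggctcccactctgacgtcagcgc
The *Slc2a1* stretch held 2 cores, 61 and 36 bases before the start by their first letter, and *Bnip3* held 5, of which 4 lay between 117 and 99 bases before it. *Egln3* had 1 core, 229 bases before the start, *Ddit4* had 2 and *Ldha* had 5. No core was found in the windows of *Gpi1*, *Tpi1* and *Pgam2*.

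The most abundant of the 33 transcripts encoded glycolytic enzymes and lactate dehydrogenase. By RPKM averaged over the 12 libraries *Gapdh* stood first (1923, with libraries from 1581 to 2594), followed by *Aldoa* (1159), *Ldha* (984), *Tpi1* (770.0) and *Pkm* (769.6). The ranges of these last 3 over libraries overlapped. *Slc2a1* reached 218 and *Bnip3* 184. The lowest mean was that of *Epas1* (7.64), below *Pdk4* (8.41), *Egln3* (8.76), *Ndrg1* (8.77), *Aldoc* (9.19), *Ankrd37* (9.41) and *Slc2a4* (9.81), and the libraries of these 7 genes overlapped. Together the 32 tested genes took 1.69 to 1.76% of all counts in E11.5 controls and 1.82 to 2.27% in E11.5 mutants. At E12.5 they took 1.51 to 1.62% in controls and 1.76 to 1.89% in mutants. The mutant libraries lay above the control libraries at both stages, and the highest value belonged to E11.5 mutant 3.

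Some genes of glucose transport, of glycolysis, of oxygen sensing and among the HIF targets rose in mutant hearts. Over both stages 2 of 4 carriers (*Slc2a1*, *Slc2a3*), 2 of 9 upper and 3 of 6 lower glycolytic enzymes, both hydroxylases and 2 of 4 targets (*Bnip3*, *Ddit4*) passed, while no lactate dehydrogenase, pyruvate dehydrogenase kinase or HIF subunit gene did. With the stage as a covariate, 11 of 32 genes rose at an adjusted p of at most 0.05 (34.4%, compared with 3.78% of 12270 genes) and 3 of them by at least 1.5-fold (1.85% of all genes). None of the 32 fell, compared with 3.06% of all genes. The median log2 fold change was 0.23 over the 32 genes and 0.00 over all genes. In 8 of 32 genes (25%) all mutant libraries lay above all control libraries at both stages, compared with 3.49% of all genes. These were *Slc2a1*, *Slc2a3*, *Pfkp*, *Pgam1*, *Pkm*, *Egln3*, *Bnip3* and *Ddit4*. Of the 11 genes, *Slc2a1*, *Slc2a3*, *Egln3*, *Bnip3* and *Ddit4* passed under all 23 alternatives. The count fell from 11 to 5, 6 or 7 on leaving out E12.5 mutant 3 (5), E11.5 control 2, E12.5 control 3 or E12.5 mutant 1 (6 each), or E11.5 control 1, E11.5 control 3, E11.5 mutant 3 or E12.5 control 1 (7 each).

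Within the stages fewer genes passed. At E11.5 edgeR called none of the 32 genes (0.0492% of 12197 genes rose), while 11 had an unadjusted p below 0.05, all of them higher in mutants. Over all genes 1242 of 12197 had such a p, 610 of them higher. DESeq2 called *Slc2a1* and *Slc2a3*, and limma none of the 32. Over all 12197 genes 128 rose and 147 fell by DESeq2, compared with 6 and 8 by edgeR. Non-overlapping groups with the mutants higher were seen for 15 of 32 genes (46.9%, compared with 8.32% of all genes). At E12.5 8 of 32 genes rose (25%, compared with 2.73% of 12257 genes), of which *Slc2a1* and *Slc2a3* passed 1.5-fold (6.25%, compared with 1.59%), and none fell (2.27% of all genes). Non-overlapping groups with the mutants higher were found for 17 of 32 genes (53.1%, compared with 13.7%). The E12.5 count rested on single libraries: it was 0 without control 1, 2 without control 2, 1 without mutant 1 and 3 without mutant 3, and 10 without mutant 2. With all 12 libraries in 1 fit it was 2, and by DESeq2 it was 15, of which 14 rose and *Pdk2* fell. Over all 12257 genes 463 rose and 403 fell by DESeq2, compared with 335 and 278 by edgeR. The log2 fold changes of the 8 genes stayed positive in each of these fits. Counts over all genes moved too. Unlike the counts above they also needed 1.5-fold, and they went from 362 to 151 without control 1. Whether the 32 genes depended on single libraries more than all genes did was not tested. The mutant effect did not pass a test of difference between the stages for any of the 32 genes by edgeR, DESeq2 or limma, nor at an unadjusted p below 0.05, and edgeR called 0% of 12270 genes, with 551 at an unadjusted p below 0.05.

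**Figure D1:**
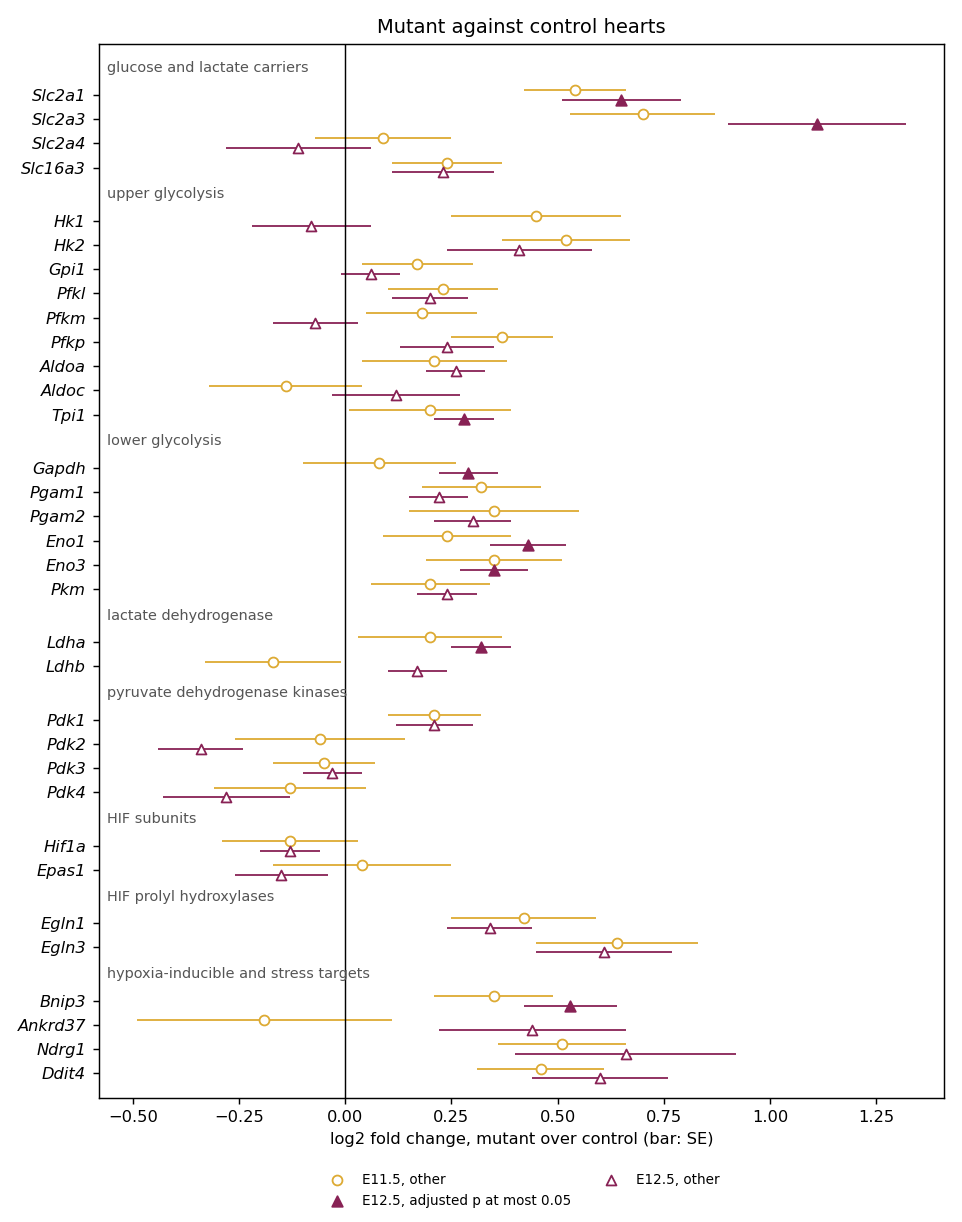
Log2 fold change of each of the 33 genes, mutant over control, by role, at E11.5 (circles) and E12.5 (triangles), with SE as bars. Filled symbols have an adjusted p of at most 0.05 and are seen only at E12.5, for 8 genes. Most symbols lie right of zero, those of *Pdk1* among them. The other pyruvate dehydrogenase kinases and the HIF subunits lie around or left of zero.

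*Slc2a1*, the main glucose carrier of embryonic cells (chr4:119108711-119137983), measured 522, 604 and 537 CPM in E11.5 controls and 804, 791 and 824 in mutants. At E12.5 it measured 347, 338 and 352 CPM in controls and 524, 414 and 687 in mutants. Mutant libraries exceeded control libraries at both stages, and they spread far more at E12.5 than at E11.5. Over both stages it rose by 0.60 ± 0.10 on the log2 scale (SE, adjusted p = 0.00323), with 0.54 ± 0.12 at E11.5 (adjusted p = 0.152) and 0.65 ± 0.14 at E12.5 (adjusted p = 0.0295).

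*Slc2a3*, a high-affinity glucose carrier (chr6:122727809-122801640), had the largest fold change of the 33 genes. Its CPM were 94.5, 88.3 and 67.0 in E11.5 controls against 146, 113 and 147 in mutants, and 55.5, 48.5 and 55.5 in E12.5 controls against 118, 73.3 and 154 in mutants. The groups did not overlap at either stage, and E12.5 mutant 2 lay nearest to the controls. It rose 2.16-fold at E12.5 (log2 1.11 ± 0.21, adjusted p = 0.0144) and 1.87-fold over both stages (adjusted p = 0.00419), and without 1 E12.5 library the log2 fold change at that stage ranged from 0.84 to 1.36. *Slc2a4*, the insulin-responsive carrier of adult muscle, was at 18.0 to 34.5 CPM in all 12 libraries, with a log2 fold change over both stages of -0.01 ± 0.13. *Slc16a3*, which exports lactate, was at 172 to 210.4 CPM in E11.5 controls and 212 to 252 in mutants, and its groups overlapped at E12.5 (log2 fold change over both stages 0.24 ± 0.09, adjusted p = 0.139).

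**Figure D2:**
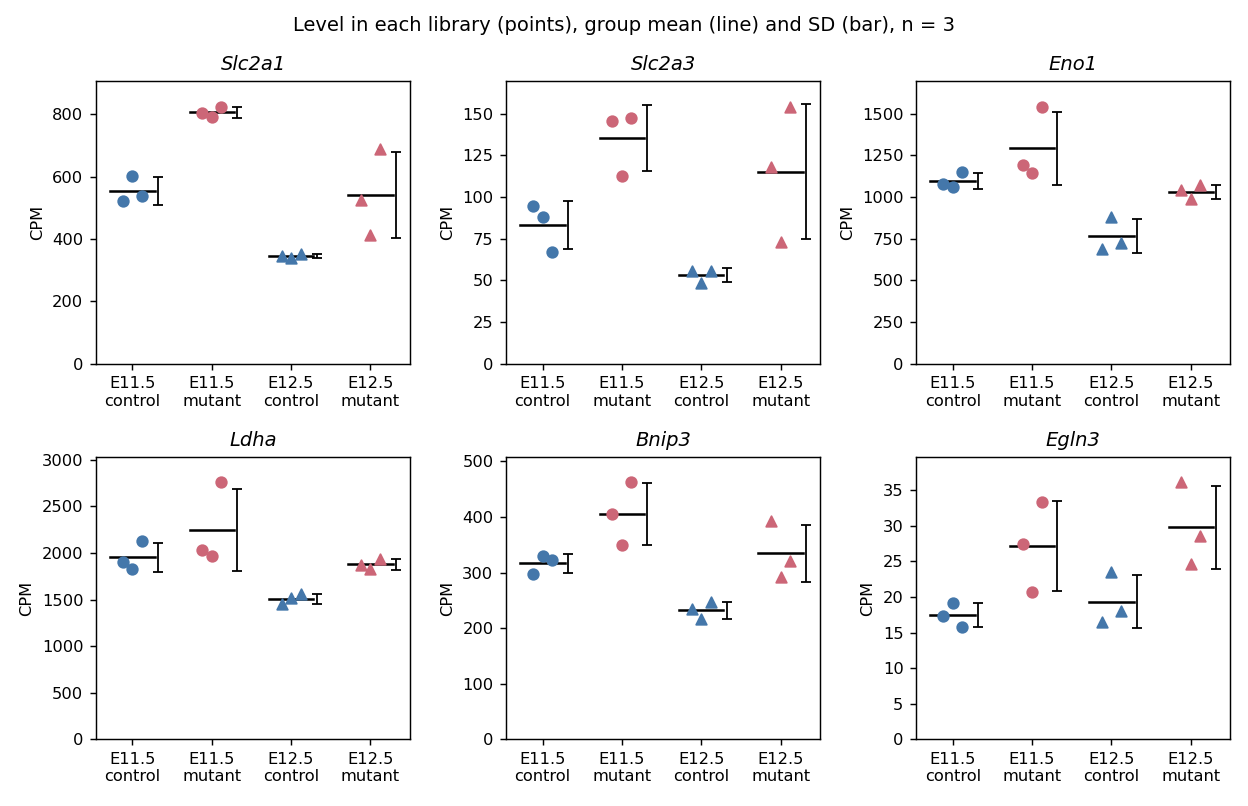
CPM of 6 genes in each of the 12 libraries by group (circles E11.5, triangles E12.5, blue controls, red mutants, line mean, bar SD, n = 3). *Slc2a1*, *Slc2a3*, *Bnip3* and *Egln3* show mutant libraries above control libraries at both stages, and the high E11.5 point of *Eno1* and *Ldha* is mutant 3.

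In upper glycolysis 2 of 9 genes rose over both stages, compared with 3.78% of all genes. *Hk2*, the inducible hexokinase that traps glucose in the cell, was at 110, 118 and 90.5 CPM in E11.5 controls and 162, 132 and 162 in mutants, and at 99.2, 109 and 87.5 in E12.5 controls and 148, 91.0 and 156 in mutants. Only E12.5 mutant 2 lay within the range of its controls. *Hk2* rose by 0.47 ± 0.12 over both stages (adjusted p = 0.0348), while *Hk1*, the constitutive hexokinase, had 0.19 ± 0.15 (adjusted p = 0.559). *Pfkp*, a phosphofructokinase of the committed step, rose by 0.30 ± 0.08 (adjusted p = 0.0352). Its libraries were at 335 to 360 CPM in E11.5 controls against 419 to 474 in mutants, and at 295 to 403 against 416 to 456 at E12.5. The muscle and liver forms *Pfkm* and *Pfkl* had log2 fold changes of 0.06 ± 0.09 and 0.22 ± 0.07 (adjusted p = 0.812 and 0.0971). *Tpi1*, which interconverts the triose phosphates, passed at E12.5, with 1004, 1061 and 1038 CPM in controls and 1248, 1213 and 1323 in mutants (log2 0.28 ± 0.07, adjusted p = 0.0394, and 0.0543 with the trend on gene length removed). At E11.5 it had 0.20 ± 0.19. *Gpi1*, *Aldoa* and *Aldoc* did not pass, with log2 fold changes over both stages of 0.11, 0.23 and -0.01.

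All 6 genes of lower glycolysis had mutant libraries above all control libraries at E12.5 (13.7% of all genes did), and 3 of them rose at that stage (2.73% of all genes). *Eno1*, the widely expressed enolase, was at 687, 879.8 and 725 CPM in E12.5 controls and 1041, 986 and 1070 in mutants (log2 0.43 ± 0.09, adjusted p = 0.0266). *Eno3*, the muscle enolase, was at 394, 352 and 399 CPM and 472, 467 and 519 CPM (0.35 ± 0.08, adjusted p = 0.0313). *Gapdh*, the gene to which the qRT-PCR of the study was normalised, was at 1947, 2010 and 2149 CPM in E12.5 controls and 2463, 2459 and 2532 in mutants. It rose 1.22-fold at E12.5 (log2 0.29 ± 0.07, adjusted p = 0.0372), and passed in 9 of the 18 alternatives, with a log2 fold change of 0.21 and an adjusted p of 0.0499 once the trend on gene length was removed. At E11.5 its groups overlapped, with 2326, 2193 and 2706 CPM in controls and 2229, 2220 and 3196 in mutants, and without mutant 3 the fold change at that stage turned negative (log2 0.08 ± 0.18 with it and -0.12 without it). Over both stages *Eno1*, *Eno3* and *Pgam1*, a phosphoglycerate mutase, rose (0.34, 0.35 and 0.27, adjusted p = 0.0377, 0.0209 and 0.0444). *Pgam2* (0.33), *Pkm* (0.22) and *Gapdh* (0.18) did not pass, with adjusted p of 0.0987, 0.0737 and 0.324.

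*Ldha*, the form of lactate dehydrogenase that favours lactate, was at 1451, 1522 and 1557 CPM in E12.5 controls and 1877, 1824 and 1941 in mutants, a rise of 0.32 ± 0.07 (adjusted p = 0.0248). Each mutant library lay above each control library. At E11.5 the groups overlapped, with 1908, 1824 and 2125 CPM in controls and 2030, 1965 and 2757 in mutants (0.20 ± 0.17, adjusted p = 0.794), and the highest of these was mutant 3. *Ldhb*, the heart form, measured -0.17 ± 0.16 at E11.5 and 0.17 ± 0.07 at E12.5 (log2 fold changes), and neither passed.

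The pyruvate dehydrogenase kinases, which hold pyruvate back from the mitochondrion, did not share this direction. Only *Pdk1*, the HIF target among them, had positive values at both stages (0.21 ± 0.11 and 0.21 ± 0.09, adjusted p = 0.599 and 0.218). *Pdk2* was lower in every E12.5 mutant library (55.2, 47.2 and 46.7 CPM) than in every control (57.7, 60.5 and 70.7), with a log2 fold change of -0.34 ± 0.10 and an adjusted p of 0.0806, which ranged from 0.0367 to 0.469 over the alternatives. *Pdk4*, induced by fasting and fatty acids, had -0.28 ± 0.15 at E12.5 (adjusted p = 0.323), and *Pdk3* -0.03 ± 0.07 (adjusted p = 0.816).

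The HIF alpha transcripts were not among the genes that passed, while both hydroxylase genes were. *Hif1a* was at 335 to 505 CPM in all libraries, with a log2 fold change over both stages of -0.13 ± 0.09 (adjusted p = 0.468), and *Epas1* at 26.5 to 49.0 CPM, with -0.05 ± 0.13 (adjusted p = 0.889). *Egln1*, the main oxygen sensor, rose by 0.38 ± 0.10 over both stages (adjusted p = 0.0315), from 126 ± 9.84 to 169 ± 36.0 CPM at E11.5 and from 111 ± 8.42 to 140.3 ± 16.2 at E12.5 (mean ± SD, n = 3). *Egln3*, a hydroxylase gene strongly induced by HIF, was at 17.3, 19.1 and 15.8 CPM in E11.5 controls and 27.5, 20.8 and 33.3 in mutants, and at 16.5, 23.6 and 18.0 against 36.1, 24.7 and 28.5 at E12.5. It rose by 0.63 ± 0.13 over both stages (adjusted p = 0.0118).

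Among the HIF and stress targets, *Bnip3*, which marks mitochondria for autophagy, was at 298, 331 and 322 CPM in E11.5 controls and 405, 349 and 462 in mutants. At E12.5 it was at 234, 216 and 247 CPM in controls and 392, 293 and 320.2 in mutants, so that the groups were separate at both stages. It rose by 0.53 ± 0.11 at E12.5 (adjusted p = 0.0193) and by 0.44 ± 0.09 over both stages (adjusted p = 0.00925). *Ddit4*, an inhibitor of mTOR signalling induced by hypoxia and stress, went from 30.4 ± 4.29 to 41.8 ± 5.01 CPM at E11.5 and from 29.6 ± 1.68 to 44.9 ± 11.6 at E12.5, and rose by 0.53 ± 0.12 over both stages (adjusted p = 0.0150). *Ndrg1*, a further hypoxia-induced gene, was at 49.7, 20.1 and 32.1 CPM in E12.5 mutants against 25.0, 22.1 and 17.0 in controls, and did not pass over both stages (0.59 ± 0.18, adjusted p = 0.0610). *Ankrd37* was at 5.54 to 12.1 CPM and had log2 fold changes of -0.19 ± 0.30 and 0.44 ± 0.22 at the 2 stages. For any single gene with 3 libraries against 3, an exact two-sided permutation test cannot go below 0.1, and it gave 0.1 wherever the groups did not overlap.

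In control hearts 5 of the 32 genes fell and 2 rose between E11.5 and E12.5 (15.6% and 6.25%, compared with 5.81% and 5.63% of 12252 genes). *Slc2a1* and *Slc2a3* fell by at least 1.5-fold and *Pdk2* and *Pdk4* rose by as much (2.43% and 2.85% of all genes in the 2 directions). *Slc2a1* fell by 0.68 ± 0.09 on the log2 scale (adjusted p = 0.00757), *Slc2a3* by 0.65 ± 0.13 (0.0243), *Eno1* by 0.52 ± 0.11 (0.0266), *Bnip3* by 0.45 ± 0.09 (0.0255) and *Ldha* by 0.37 ± 0.10 (0.0397). *Pdk2* went from 33.9, 51.1 and 32.3 CPM to 57.7, 60.5 and 70.7 (0.69 ± 0.17, adjusted p = 0.0335), and *Pdk4* from 23.1, 26.2 and 25.0 to 45.0, 35.4 and 32.6 (0.60 ± 0.13, adjusted p = 0.0284). E12.5 controls were below all E11.5 controls for 11 of 32 genes (34.4%, compared with 18.5% of all genes). The E11.5 controls were all called male, and of the E12.5 controls only control 3 was, so that sex and stage overlapped. With sex as a covariate none of the 32 genes passed. The same count over all genes is not given here, so this is not read as particular to the 32 genes. The log2 fold changes of the 7 genes named above stayed between -0.66 and -0.33 for those that fell. They stayed at 0.85 and 0.39 for *Pdk2* and *Pdk4*. The count of 7 became 0 without E12.5 control 1, 1 without E11.5 control 1, 2 without E11.5 control 3 or E12.5 control 2, and 4 without E12.5 control 3. The trend of expression on gene length also differed between the control groups, with slopes of -0.137 to 0.00895 at E11.5 and 0.0443 to 0.151 at E12.5. With that trend removed 3 of the 32 genes fell and 2 rose, of which 2 and 1 passed 1.5-fold. Over all genes 266 then fell and 236 rose, compared with 712 and 690 with the trend left in.

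In mutant hearts edgeR called none of the 32 genes between the stages (0.556% of 12238 genes passed), nor did DESeq2 or limma, and 4 had an unadjusted p below 0.05, as had 1134 of the 12238 genes. *Slc2a1* went from 804, 791 and 824 to 524, 414 and 687 CPM (log2 -0.58 ± 0.18, adjusted p = 0.296), *Slc2a3* had -0.24 ± 0.24 (0.786), *Eno1* -0.34 ± 0.14 (0.520), *Bnip3* -0.29 ± 0.15 (0.630) and *Ldha* -0.27 ± 0.15 (0.649). *Pdk2* and *Pdk4* had 0.40 ± 0.14 and 0.44 ± 0.20 (0.419 and 0.544). The signs were those of the controls for all 7 genes, and the difference between genotypes in these stage changes is the same term as the difference of the mutant effect between stages, which none passed. At E12.5 the mean of *Slc2a1* in mutants (542 ± 138 CPM, n = 3) lay near that of E11.5 controls (554 ± 43.6), as did that of *Ldha* (1880 ± 58.8 and 1952 ± 155) and *Eno1* (1032 ± 42.4 and 1095 ± 48.6). *Bnip3* had 335 ± 51.3 and 317 ± 17.0 CPM. The means of *Slc2a3* (115 ± 40.5 and 83.3 ± 14.4), *Pdk2* (49.7 ± 4.80 and 39.1 ± 10.4) and *Pdk4* (31.0 ± 5.83 and 24.8 ± 1.55) lay further apart. *Slc2a1*, *Slc2a3*, *Eno1*, *Bnip3* and *Ldha* had passed between stages in controls and between genotypes at E12.5, and these tests share the E12.5 controls. The means of these 7 genes were set side by side and not tested.

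**Figure D3:**
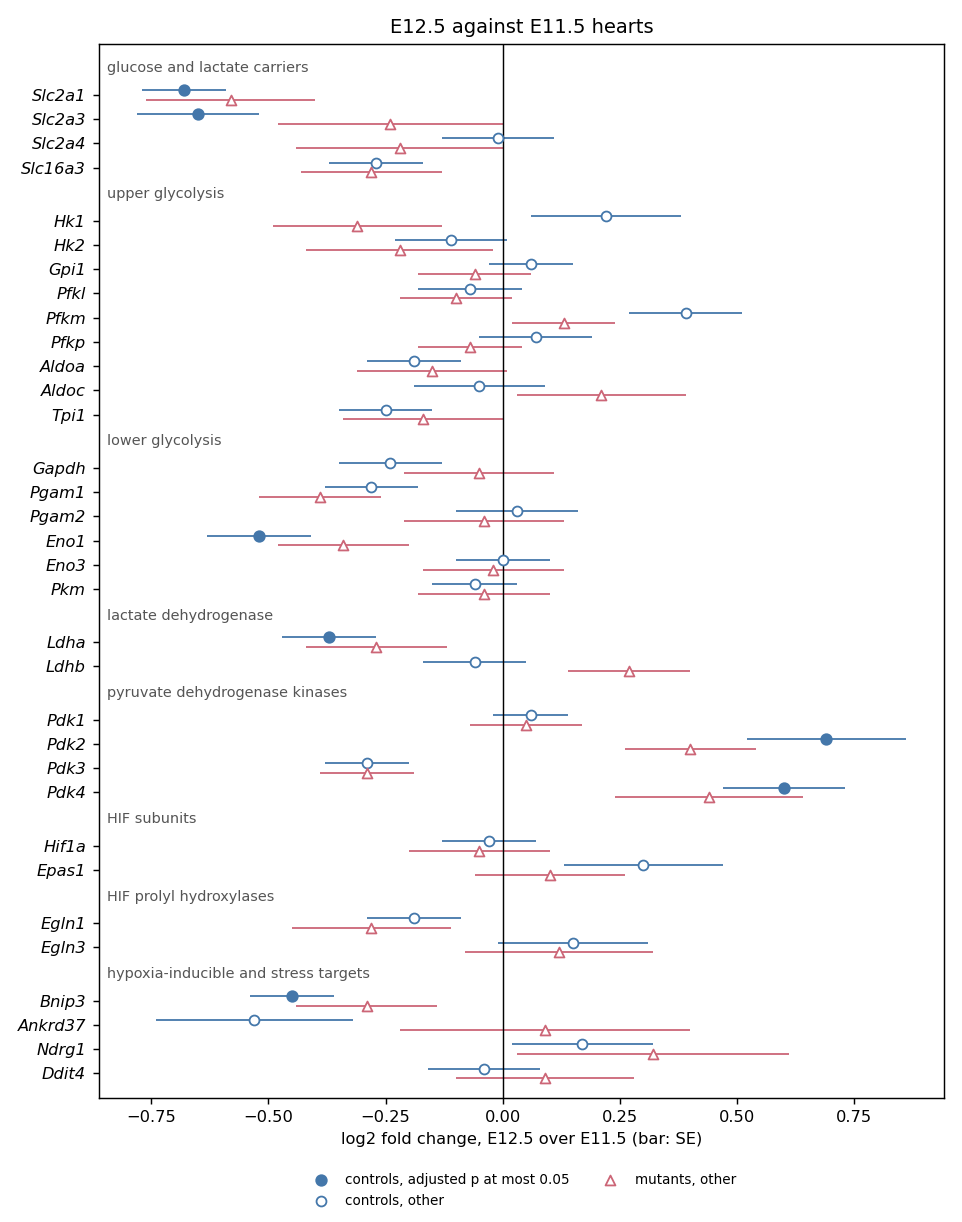
Log2 fold change of each gene from E11.5 to E12.5 in controls (circles) and mutants (triangles), with SE as bars. Filled symbols (adjusted p of at most 0.05) are seen in controls only, with *Slc2a1*, *Slc2a3*, *Eno1*, *Ldha* and *Bnip3* left of zero and *Pdk2* and *Pdk4* right of it.

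Since related enzymes share a step, the share of each family's summed RPKM was also computed. At E12.5 *Hk2* made up 17.7 to 18.6% of the hexokinase RPKM of *Hk1* and *Hk2* in controls and 21.7 to 25.7% in mutants, and the groups did not overlap. They did at E11.5, with 20.8 to 24.4% and 18.0 to 27.0%. *Slc2a3* had 7.96 to 8.83% of the RPKM of the 3 glucose carriers in controls and 9.97 to 12.3% in mutants, and *Slc2a4* had 5.72 to 6.81% and 3.44 to 3.87%. At E11.5 the share of *Slc2a3* overlapped between groups (7.23 to 10% and 8.17 to 10.3%), while that of *Slc2a4* did not (3.71 to 4.62% and 2.50 to 3.51%). *Ldha* had 64.2 to 66.1% of the lactate dehydrogenase RPKM in E12.5 controls and 66.8 to 67.2% in mutants, and 68.1 to 70.5% and 72.7 to 76.0% at E11.5, so that its share was higher in mutants and lower at the later stage. *Pfkm* went from 24.1 to 26.4% of the phosphofructokinase RPKM in E12.5 controls to 20.7 to 22.5% in mutants, and *Pdk2* from 14.0 to 17.0% to 11.5 to 13.2% among the kinases. At E11.5 both overlapped, with 19.0 to 21.2% and 18.3 to 20.2% for *Pfkm* and 7.57 to 11.7% and 7.87 to 9.75% for *Pdk2*. *Aldoa* held 99.1 to 99.4% of the aldolase RPKM and *Hif1a* 91.7 to 93.3% of the HIF alpha RPKM by the means of the groups. *Pdk1* had 23.3 to 25.4% among the kinases in E12.5 controls and 26 to 30% in mutants, and overlapped at E11.5. At E12.5 the shares of the aldolases, phosphoglycerate mutases, enolases, HIF alpha subunits and hydroxylases overlapped between genotypes. So did those of *Slc2a1*, *Pfkl*, *Pfkp*, *Pdk3* and *Pdk4*. Shares of other gene families were not computed. A share cannot tell a gene that rose from a partner that fell.

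**Figure D4:**
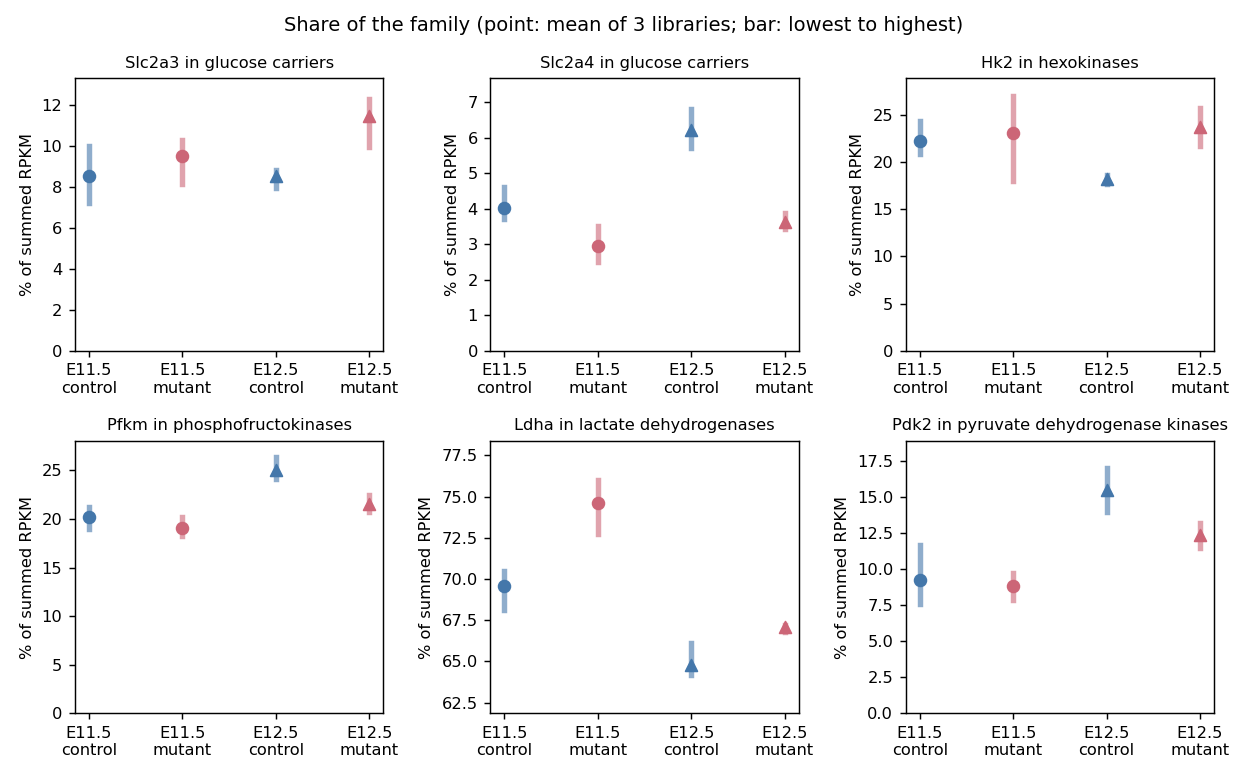
Percent of the summed RPKM of its family taken by each of 6 genes in the 4 groups (point mean of 3 libraries, bar lowest to highest). The *Ldha* axis does not start at 0. At E12.5 the bars of mutants and controls do not overlap for these 6 genes, and *Slc2a3*, *Hk2* and *Ldha* are higher in mutants. Genes whose shares overlapped at E12.5 are not drawn.

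Other genes of these pathways were counted from 6 lists. Of 39 further hypoxia-inducible genes, 9 rose at E12.5 and 10 over both stages, compared with 2.73% and 3.78% of all genes, and none fell, compared with 2.27% and 3.06% (median log2 fold change 0.27 and 0.24, compared with 0.00 over all genes). *Higd1a*, a mitochondrial HIF target, was at 90.0, 99.8 and 102 CPM in E12.5 controls and 168, 149 and 160.0 in mutants (0.71 ± 0.08, adjusted p = 0.00132). *Stc2*, a secreted glycoprotein, rose by 0.98 ± 0.16 (adjusted p = 0.00921), and *Adm*, which encodes the vasodilator adrenomedullin, by 0.96 ± 0.24 (0.0460). *Fam162a*, *Insig2*, *Ak4*, *Errfi1*, *Mif* and *Ndufa4l2* rose by 0.39 to 0.70. Over both stages *Ak4*, an adenylate kinase of the mitochondrion, had the lowest p of these lists (0.53 ± 0.07, adjusted p = 0.000945), with 65.6, 68.0 and 70.6 CPM against 100.2, 93.4 and 101 at E11.5 and 58.5, 62.9 and 58.6 against 96.6, 71.5 and 91.3 at E12.5. *Stc2*, *Bhlhe40*, *Plod1*, *Higd1a*, *Adm*, *Ndufa4l2*, *Car12*, *Rcor2* and *Vegfa* made up the other 9, between 0.35 (*Vegfa*) and 0.91 (*Ndufa4l2*).

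Few genes of the other lists passed between genotypes. Of 18 other glycolysis genes none passed over both stages and 1 at E12.5, *Bpgm*, which makes the 2,3-bisphosphoglycerate of red cells and fell by 0.98 ± 0.14 (adjusted p = 0.00495), from 63.9, 51.7 and 74.0 CPM to 34.7, 34.6 and 26.8. The red-cell markers described below moved with it, and their part in it was not tested. No gene of pyruvate entry (10), pentose phosphate (7), glycogen (13) or oxygen sensing (12) passed at E12.5. Over both stages the phosphorylase *Pygm* (0.37 ± 0.08, adjusted p = 0.0133) and the ubiquitin ligase *Siah2*, which acts on HIF hydroxylases (0.54 ± 0.13, 0.0204), rose, and the pyruvate dehydrogenase phosphatase *Pdp1* fell by 0.42 ± 0.11 (0.0358). At E11.5 no gene of the 6 lists passed by edgeR, with 13 of the 39 hypoxia-inducible genes at an unadjusted p below 0.05, 11 of them higher (over all genes 1242 of 12197, 610 of them higher). In controls 4 genes of the 6 lists rose between the stages and 11 fell, while 5.63% and 5.81% of all genes did. Of the 39 hypoxia-inducible genes 5 fell (*Edn1*, *Higd1a*, *Errfi1*, *Mif* and *Fam162a*, by 0.55 to 0.65) and none rose. *Tceb1*, *Rbx1* and *Tceb2*, subunits of the ligase that degrades HIF, fell by 0.51, 0.51 and 0.54. *Pfkfb2*, which sets the level of a phosphofructokinase activator, rose by 0.93 ± 0.14 (adjusted p = 0.0107), *Bpgm* rose by 0.73, and *Pklr* fell by 2.68 at a low level (4.68 to 6.21 CPM at E11.5 and 0.197 to 2.16 at E12.5). In mutants *Pklr* was the only gene of the 6 lists that passed (-3.09 ± 0.28, adjusted p = 0.00594). *Rcor2*, *Vegfa*, *Pdp1*, *Rbx1* and *Tceb2* ranked below the first 10 of their comparisons and were named after their values were seen.

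Cell type markers were read beside these values, since in whole hearts fewer cells of a type and less RNA per cell cannot be told apart. The summed CPM of 12 cardiomyocyte markers was 28828 to 29573 in E12.5 controls and 29302 to 35653 in mutants. None of the 12 passed at E12.5, while 10 had positive log2 fold changes (median 0.19, and 0.25 over the 32 genes). An unadjusted p below 0.05 was found for 6, all higher, compared with 2621 of 12257 genes, 1370 of them higher. In 4 of the 12 all mutant libraries lay above all control libraries (13.7% of all genes). The red-cell list was lower in E12.5 mutants, with sums of 2159 to 2800 CPM against 3939 to 6572 in controls. Of its 8 tested genes 6 fell, compared with 2.27% of all genes. At E11.5 the sums were 4532 to 5818 in mutants and 4444 to 5554 in controls. Macrophage sums were 38.7 to 52.5 CPM in E12.5 mutants and 59.1 to 85.5 in controls, and 11.2 to 15.0 against 28.2 to 72.1 at E11.5. Of the 6 genes 2 fell at E12.5 (2.27% of all genes) and 1 at E11.5 (8 of 12197 genes). The epicardial sums were 307 to 411 CPM in E11.5 mutants against 481 to 739.9 in controls, and overlapped at E12.5. None of the 5 genes passed at E11.5, where 8 of 12197 genes fell. All 5 had an unadjusted p below 0.05 at that stage, compared with 1242 of 12197 genes (median log2 fold change -0.74). In all 5 the mutant libraries lay below all control libraries, as in 974 of 12197 genes. At E12.5 none of the 5 showed either. The cushion mesenchyme sums were 1609 to 2305 CPM in mutants against 2477 to 2851 in controls at E11.5 and 2775 to 3236 against 3250.2 to 3640.2 at E12.5. *Postn* of this list fell at E12.5 (by 0.61 ± 0.13, adjusted p = 0.0241). Endothelial sums overlapped at both stages, all 6 endothelial genes had positive log2 fold changes over both stages, and *Pecam1* rose (0.38 ± 0.09, adjusted p = 0.0264). Skeletal muscle sums ran from 33.9 to 86.6 CPM and liver sums from 0.664 to 56.4 CPM over all libraries. The liver gene *Alb* had a log2 fold change of 3.99 ± 1.11 over both stages (adjusted p = 0.0450). It was too low to be tested at E11.5 or between stages in controls and entered only fits that held the E12.5 mutants. Its value is therefore not read as a change. *Afp*, *Apoa1* and *Ttr* did not pass over both stages (adjusted p = 0.44, 0.929 and 0.774). The part of these markers in the glycolytic and hypoxia values was not tested, and with the globin genes left out of the scaling 9 of the 32 genes passed at E12.5 and 10 over both stages.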

How the data were processed

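RNA-seq of whole embryonic hearts was used as deposited. Per the labels and the study's methods, the authors extracted RNA with QIAGEN columns, made Illumina libraries, aligned reads to mm10 with Bowtie2 and normalised with DESeq. The counting program, annotation and use of the strand are not given in the sources used here. The authors deposited RPKM values per library and average counts (expected counts) per group. The deposited tables also hold the authors' fold changes and p-values, which were not used. No column was left unmapped.

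Each RPKM value was a whole count multiplied by 1 factor per gene and 1 per library, and these were solved so that counts matched the average counts. Counts of 17827 genes with reads lay within 5.97e-10 of whole numbers. Another 1597 genes had no reads. X- and Y-linked genes had no averages, and counts were recovered for 508 of 944 such genes, *Pdk3* among them.

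A mean RPKM of 0.5 or more among its libraries was required of a gene in each fit, which used edgeR 4.0.16 (quasi-likelihood, TMM scaling, R 4.3.3) and Benjamini-Hochberg adjustment over all of them. A gene passed at an adjusted p of at most 0.05, and fold calls also needed 1.5-fold. Standard errors were taken from the fold change and the F statistic. Mutants and controls were compared at each stage and over both with stage as a covariate, stages within each genotype, and the difference of the mutant effect between stages was tested. Alternatives were DESeq2 1.42.0, limma 3.58.1 on log2(RPKM + 0.5) and + 1, other filters and scalings, covariates and leaving out each library. Removal of the trend on gene length (lowess span 0.3) was added after the data were seen. The methods were tested on simulated data. Sex was called male at 100 or more counts over 4 Y-linked genes.

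The members and lists were chosen with earlier results of these data known. The text names all 33 members and, of the other lists, the 10 genes with the lowest p per comparison, of which 1 is not reported here. Marker lists were those of cardiomyocyte, endothelium, epicardium, cushion mesenchyme, red cell, macrophage, skeletal muscle and liver.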

Additional observations from a re-analysis of the deposited data

How the results depend on the processing

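No called value of a single gene changed sign under any alternative run. At E11.5 the count of the 32 genes past the adjusted p was 0 and became 2 by DESeq2, 1 of them past 1.5-fold, and 1 with the trend on gene length removed. At E12.5 the count of 8 became 15 by DESeq2 and 2 with all 12 libraries in 1 fit. DESeq2 also passed more of all genes than edgeR did at each stage. The 2 genes past 1.5-fold at E12.5 became 4 with no filter and 4 by DESeq2, and 8 with no fold threshold. Over both stages the 3 genes past 1.5-fold became 1 by limma on log2(RPKM + 1), 5 with sex as a covariate and 11 with no fold threshold. Between stages in controls the count of 7 became 3 with all 12 libraries in 1 fit and 0 with sex as a covariate, and the 4 genes past 1.5-fold became 2, 0 and, with no fold threshold, 7. The cause was not tested. The fit of all 12 libraries shared 1 estimate of the spread among all groups.

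Leaving out 1 library gave 0 to 10 genes past the adjusted p at E12.5 (0 to 7 past 1.5-fold), 5 to 14 over both stages (2 to 5) and 0 to 10 between stages in controls (0 to 5). At E11.5, between stages in mutants and for the difference between stages it gave 0 throughout. The labels do not say whether replicate numbers pair the samples. Correlations of deviations ran from -0.128 to 0.425 between same-numbered libraries and from -0.488 to 0.243 between the others, which does not settle it. With the replicate number as a block the count was 6 at E12.5, 11 over both stages and 8 between stages in controls. The count over all genes past both thresholds ranged from 132 to 494 at E12.5 (362 as reported), from 120 to 470 over both stages (395) and from 19 to 1406 between stages in controls (647).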
